A study of Mus musculus with 6 samples.

Results

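The integrated stress response lowers general protein synthesis when a cell meets amino acid shortage, unfolded protein in the endoplasmic reticulum (ER), haem shortage or mitochondrial damage. Its kinases phosphorylate the initiation factor eIF2alpha, and the mRNA of the transcription factor ATF4 is then translated in preference to others. ATF4 pairs with C/EBP proteins at DNA sequences called C/EBP-ATF response elements (CARE) and switches on genes for amino acid supply, for the second-wave factor CHOP and, in liver, for the secreted hormone FGF21. The genes described here are 7 of the 3542 in the deposited table: Asns, which encodes the asparagine synthetase that makes asparagine from aspartate and glutamine, Nupr1, a small stress-induced chromatin protein, Ddit3, which encodes CHOP, Trib3, a pseudokinase that binds AKT and restrains ATF4 and CHOP, Fgf21, Casp12, an ER-associated caspase of rodents, and Ero1l, which encodes the ER oxidase that recharges protein disulphide isomerase. They were chosen by name from a table selected on the same contrast that is shown here, so their differences between genotypes are given as a description, with no test. ATF4 itself (Atf4) and CHOP partners outside the table were not analysed here.

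The liver came from 3 Mul1(+/+) and 3 Mul1(−/−) mice, all fed a high-fat diet (HFD, 60% of calories from fat) for 16 weeks from 8 weeks of age. MUL1 is an E3 ubiquitin ligase of the outer mitochondrial membrane, and Mul1(−/−) mice lack it in the whole body and not in liver alone. The paper reports glucose and insulin tests of the animals after the diet and before tissue was taken. It also reports that Mul1(−/−) mice gained very little weight on HFD, so body weight can differ along with genotype. The labels do not give weight or fasting state. Mice on regular chow are not among these libraries, and the study used both sexes without the labels giving the sex of a sequenced animal. mRNA was sequenced from about 100 mg of tissue per library. The values are normalized counts, read counts divided by a scaling factor of each library as the authors deposited them, and differences are given on the scale log2(normalized count + 1) as Mul1(−/−) minus Mul1(+/+).

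Reads of the targeted gene were fewer in Mul1(−/−) HFD-liver but present in every library. Mul1 (ENSMUSG00000041241, chr4:138434671-138442265 on GRCm38) stood between 3172 and 3423 normalized counts in the Mul1(+/+) livers and at 1037, 965 and 1753 in Mul1(−/−) replicates 1 to 3, a log2 difference of −1.44 (limma adjusted p = 0.0126, exact two-sided permutation p = 0.1, the smallest that 3 against 3 allows). The table gives 1 value per gene and does not show which exons these reads cover, so it does not tell whether intact Mul1 transcript remained. For the protein, the paper blotted MUL1 in liver of both genotypes on HFD and describes its expression as absent in Mul1(−/−) mice. Per library, 11932163 to 15385822 reads fell on genes of the table, which hold part of each library, and 1 read was worth 0.817 to 1.46 normalized counts. Reads on the mitochondrial genome made up 10.67 to 13.39% of them in Mul1(+/+) HFD-liver and 49.36%, 22.79% and 15.38% in Mul1(−/−) replicates 1 to 3. The labels call the cells hepatocytes, but the tissue is whole liver. Of 14 hepatocyte markers, 4 were in the table and all were lower in Mul1(−/−), with a summed level of 387946 to 510427 in Mul1(+/+) and 181748 to 210082 in Mul1(−/−), while all 4 cholangiocyte markers of 8 in the table were higher, at 1292 to 1891 against 4878 to 5100, and all 3 stellate cell and fibroblast markers of 10 were higher, at 4535 to 5467 against 9101 to 29168. A single gene held most of each of the last 2 sums. It was Spp1 for cholangiocytes, at 1109 to 1645 against 3336 to 4613, and Dcn for stellate cells and fibroblasts, at 3452 to 4335 against 5569 to 24011. Of the other lists, 1 of 10 macrophage markers (Lyz2), 2 of 9 lymphocyte markers and 1 of 6 neutrophil markers were higher, 2 of 8 endothelial markers were lower and 0 of 8 adipocyte and muscle markers were in the table, and no marker in the table was at 0. The part of these shifts in the results that follow was not tested, and in bulk liver fewer cells of a type and less RNA per cell cannot be told apart.

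The DNA letters that ATF4 partners read were searched in the RefSeq promoter windows of all 7 genes (GRCm38.p6, 250 bases before the start site to 50 after it). CARE, written TGATGNAA and searched on both strands, was in the windows of 4 of the 7, Asns, Fgf21, Nupr1 and Trib3, against 1219 of 27025 genes with a window (4.51%) across the annotation. It was absent from the windows of Ddit3, Casp12 and Ero1l. The 7 were chosen by name as genes of this response, so a share above that of all genes can follow from the choice. The 250 bases before the start site are printed for the 3 genes whose match lies upstream of the RefSeq start, each on its own minus strand, with the CARE match in capitals.
Asns, chr6:7693210-7693459: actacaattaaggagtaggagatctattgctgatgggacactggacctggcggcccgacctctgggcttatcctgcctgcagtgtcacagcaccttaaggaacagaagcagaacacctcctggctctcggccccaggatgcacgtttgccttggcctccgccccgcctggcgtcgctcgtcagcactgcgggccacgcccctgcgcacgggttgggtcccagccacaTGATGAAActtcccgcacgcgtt
Fgf21, chr7:45615491-45615740: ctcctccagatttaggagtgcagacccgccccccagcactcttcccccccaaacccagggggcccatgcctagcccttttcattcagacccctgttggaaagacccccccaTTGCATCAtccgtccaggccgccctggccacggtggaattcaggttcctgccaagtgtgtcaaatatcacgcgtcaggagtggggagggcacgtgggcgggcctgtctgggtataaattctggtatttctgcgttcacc
Nupr1, chr7:126625471-126625720: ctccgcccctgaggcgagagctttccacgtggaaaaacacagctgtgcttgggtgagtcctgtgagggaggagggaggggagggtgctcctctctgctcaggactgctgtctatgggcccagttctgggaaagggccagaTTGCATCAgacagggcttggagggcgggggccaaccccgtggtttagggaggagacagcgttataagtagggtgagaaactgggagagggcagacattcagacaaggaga
The Asns match reads TGATGAAA from 23 to 16 bases before the start site (chr6:7693225-7693232). Fgf21 and Nupr1 share the same 8 letters, TTGCATCA, which is CARE on the opposite strand, at 139 to 132 and at 110 to 103 bases before the start site. The Trib3 match, TTACATCA (chr2:152344039-152344046), lies from 14 to 21 bases past the RefSeq start site. Start sites differ between annotations: by the GENCODE M21 coordinates given with each gene further on, the Trib3 match lies just outside the gene, and the Asns and Nupr1 matches lie inside it. A match is a string of letters and not a measured binding site.

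Asns had the largest difference of the 7 (ENSMUSG00000029752, chr6:7675169-7693254, minus strand). Replicates 1 to 3 of Mul1(+/+) HFD-liver held 16.9, 22.1 and 40.0 normalized counts, and those of Mul1(−/−) HFD-liver held 545, 567 and 660. All 3 Mul1(−/−) livers were close to each other and far above every Mul1(+/+) liver, the lowest of them 13.6 times the highest Mul1(+/+) value. The means were 26.3 ± 12.1 and 591 ± 61.3 (SD, n = 3), a ratio of 22.4 and a log2 difference of 4.52 (SE 0.43). By size this difference ranked 15 of 3542, and 13 among the genes that were higher. In Mul1(+/+) HFD-liver the gene rested on 20, 25 and 49 reads, so the counting error of the low group is large, against 373, 463 and 752 reads in Mul1(−/−).

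Nupr1 (ENSMUSG00000030717, chr7:126623249-126630861, minus strand) was likewise higher in every Mul1(−/−) liver, by a smaller factor. Normalized counts stood at 39.6, 54.0 and 38.4 in Mul1(+/+) and 339, 218 and 234 in Mul1(−/−) replicates 1 to 3. The groups lay well apart, with the lowest Mul1(−/−) liver 4.04 times the highest Mul1(+/+) liver, and Mul1(−/−) replicate 1 was the highest. The means of 44.0 ± 8.70 and 264 ± 65.8 (SD, n = 3) gave a ratio of 5.99 and a log2 difference of 2.54 (SE 0.39).

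Ddit3 (ENSMUSG00000025408, chr10:127290774-127296288, plus strand), the gene for CHOP, was higher by the smallest margin. Its normalized counts were 331, 395 and 224 in Mul1(+/+) and 798, 511 and 596 in Mul1(−/−) replicates 1 to 3. The groups did not overlap, but the lowest Mul1(−/−) liver stood only 1.29 times above the highest Mul1(+/+) liver. The means were 317 ± 86.5 and 635 ± 147 (SD, n = 3), the ratio 2.01 and the log2 difference 1.02 (SE 0.41), which places Ddit3 at rank 3447 of 3542 by size and next to the fold limit at which the table was drawn up. GENCODE M21 holds a further Ddit3 gene entry that overlaps this one by 2925 bases on the same strand, so its reads may be split and its level is uncertain.

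Trib3 (ENSMUSG00000032715, chr2:152337422-152344032, minus strand), a target of CHOP as well as of ATF4, had normalized counts of 598, 440 and 248 in Mul1(+/+) and 853, 859 and 1816 in Mul1(−/−) replicates 1 to 3. Mul1(−/−) replicate 3 was far above the other two, and the groups did not overlap, with a gap of 1.43 times between them. The means of 429 ± 175 and 1176 ± 554 (SD, n = 3) gave a ratio of 2.74 and a log2 difference of 1.45 (SE 0.49).

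Fgf21 (ENSMUSG00000030827, chr7:45613886-45615490, minus strand), the hormone that liver releases in fasting, amino acid shortage and mitochondrial stress, varied more among animals than any of the other 6. Normalized counts of the hormone gene were 72.5, 186 and 314 in Mul1(+/+) and 351, 178 and 1665 in Mul1(−/−) replicates 1 to 3. The groups overlapped, since Mul1(−/−) replicate 2 lay below Mul1(+/+) replicates 2 and 3, and replicate 3 alone carried most of the Mul1(−/−) level. The means were 191 ± 121 and 731 ± 814 (SD, n = 3), a ratio of 3.83 and a log2 difference of 1.53 (SE 0.80). Without Mul1(−/−) replicate 3 the log2 difference was 0.62, and without Mul1(−/−) replicate 2 it was 2.23.

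Casp12 (ENSMUSG00000025887, chr9:5345430-5373032, plus strand) had the largest difference after Asns. For this caspase gene the libraries gave 50.6, 50.5 and 60.4 normalized counts in Mul1(+/+) and 310, 687 and 657 in Mul1(−/−) replicates 1 to 3. The Mul1(+/+) livers were nearly equal, and the lowest Mul1(−/−) liver, replicate 1, was 5.13 times the highest of them. The means were 53.8 ± 5.72 and 551 ± 210 (SD, n = 3), a ratio of 10.2 and a log2 difference of 3.25 (SE 0.43).

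Ero1l (ENSMUSG00000021831, Ero1a in RefSeq, chr14:45283087-45318771, minus strand), known as a target of CHOP, was the member that was lower. Its normalized counts were 782, 739 and 906 in Mul1(+/+) and 269, 256 and 482 in Mul1(−/−) replicates 1 to 3. Every Mul1(−/−) liver was below every Mul1(+/+) liver, with replicate 3 nearest to them, and the lowest Mul1(+/+) value was 1.53 times the highest Mul1(−/−) value. The means were 809 ± 86.7 and 336 ± 127 (SD, n = 3), a ratio of 0.415 and a log2 difference of −1.32 (SE 0.41).

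**Figure D1:**
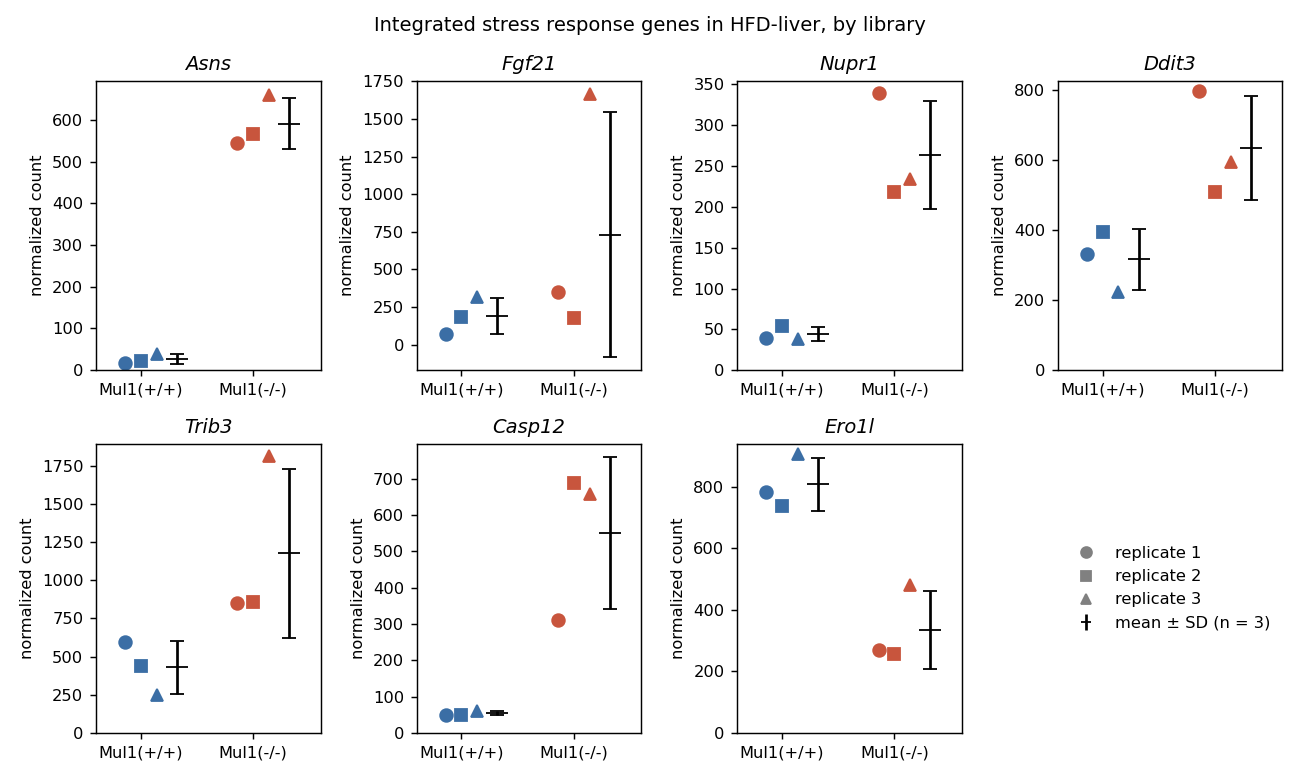
Normalized counts (vertical axes, linear, each gene on its own scale) of the 7 genes in the 3 Mul1(+/+) and 3 Mul1(−/−) HFD-liver libraries, with symbols for replicates and black bars for mean ± SD (n = 3, reaching below 0 for Fgf21 in Mul1(−/−)). Asns, Nupr1 and Casp12 separate the groups by 4.04 times or more, Fgf21 overlaps and is carried by the replicate at 1665, and Ero1l alone is lower in Mul1(−/−).

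Between genotypes, 6 of the 7 were higher and 1 was lower in Mul1(−/−), and the groups did not overlap for 5 of the higher genes and for Ero1l. Over all genes, 1746 of 3542 genes (49.3%) were higher without overlap and 1453 (41%) were lower without overlap, so separated groups are the rule in it and mark out none of these genes. The median log2 difference of the 7, with Ero1l among them, was 1.53, against 1.12 over all 3542 genes. Taken by direction, the medians over the table were 1.67 for its 2012 higher genes and −1.43 for its 1530 lower genes. Directions held in every setting of scale: after the libraries were rescaled by their median ratio, which moves all log2 differences by −0.66, Asns was at 3.87, Casp12 at 2.60, Nupr1 at 1.89, Fgf21 at 0.88, Trib3 at 0.79, Ddit3 at 0.36 and Ero1l at −1.98. Leaving out each library in turn kept 6 higher and 1 lower, with Asns between 4.26 and 4.86, Casp12 between 3.05 and 3.62, Nupr1 between 2.35 and 2.70, Trib3 between 1.08 and 1.73 and Ddit3 between 0.79 and 1.19.

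Transcript length moved with direction in the table. Among its protein-coding genes in the shortest decile by longest annotated transcript, 95.5% of 286 were higher in Mul1(−/−), and Fgf21 (951 bases) and Ddit3 (969 bases) belong to that decile. For Asns (2016 bases) and Trib3 (2026 bases) the share in their decile was 62.5%, and for Nupr1 (2449 bases) and Casp12 (2649 bases) it was 53.0%. Ero1l, at 4418 bases, lay in a decile where 62.3% were lower. The part of length in these differences was not tested.

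Per kilobase of the longest annotated transcript, which allows levels to be compared between genes, the order in Mul1(+/+) HFD-liver was Ddit3 at 327 normalized counts per kilobase, Trib3 at 212, Fgf21 at 201, Ero1l at 183, Casp12 at 20.3, Nupr1 at 18.0 and Asns at 13.1. Neighbours in this order overlapped in their per-library levels, except at the step from the first 4 genes to the last 3. In Mul1(−/−) HFD-liver the levels were 769 for Fgf21, 655 for Ddit3, 580 for Trib3, 293 for Asns, 208 for Casp12, 108 for Nupr1 and 76.0 for Ero1l. Ddit3 and Trib3 overlapped there, as did Casp12 and Nupr1, and Nupr1 and Ero1l, and Fgf21 overlapped every gene from Ddit3 to Casp12 because its libraries ran from 187 to 1750. The order depends on the transcript length used. Per kilobase of the median annotated transcript, the Mul1(+/+) order was Ero1l at 1490, Trib3 at 671, Ddit3 at 356, Fgf21 at 201, Nupr1 at 76.1, Asns at 46.4 and Casp12 at 35.8. On that measure the Mul1(−/−) order was Trib3 at 1840, Asns at 1040, Fgf21 at 769, Ddit3 at 713, Ero1l at 618, Nupr1 at 456 and Casp12 at 367. On both measures Casp12, Nupr1 and Asns had the 3 lowest levels in Mul1(+/+) HFD-liver.

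The 6 higher genes did not move as 1 unit across the Mul1(−/−) livers. On the log2 scale, Mul1(−/−) replicates 1, 2 and 3 stood above the Mul1(+/+) mean by 4.41, 4.47 and 4.69 for Asns and by 2.93, 2.30 and 2.40 for Nupr1. For Ddit3 the values were 1.37, 0.73 and 0.95. For Casp12 they were 2.51, 3.65 and 3.59. Replicate 1 was thus the highest for Nupr1 and Ddit3 and the lowest for Casp12. Replicate 3 was the highest for Trib3, at 2.17 against 1.08 and 1.09, and for Fgf21, at 3.35 against 1.11 and 0.13. Over the whole table that library was the mildest: it lay nearest to Mul1(+/+) in 71.7% of the higher genes, with a median log2 difference from the Mul1(+/+) mean of 1.15 against 1.88 and 2.0 in replicates 1 and 2. It lay nearest in 0 of the 6 higher stress response genes, and in Ero1l it did lie nearest.

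**Figure D2:**
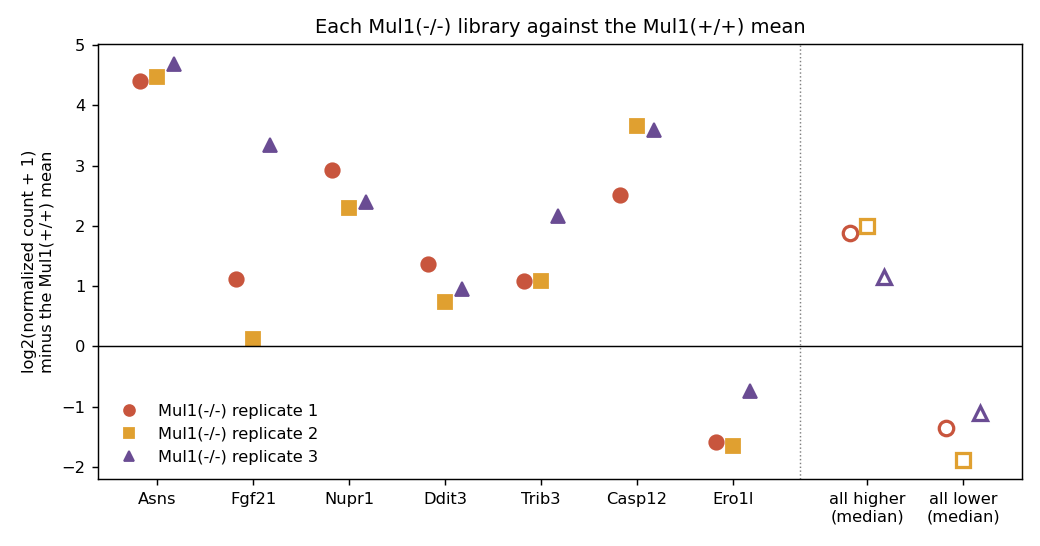
Log2(normalized count + 1) of each Mul1(−/−) library minus the mean of the 3 Mul1(+/+) libraries (vertical axis) for the 7 genes, with open symbols on the right for the medians over the 2012 higher and 1530 lower genes of the table. Mul1(−/−) replicate 3, the mildest library over the table at 1.15, is the highest of the 3 for Asns, Fgf21 and Trib3.

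Ratios within a library do not depend on its scaling factor. Asns per Ddit3 was 0.0509, 0.0561 and 0.179 in Mul1(+/+) and 0.683, 1.11 and 1.11 in Mul1(−/−) replicates 1 to 3, higher in every Mul1(−/−) liver than in any Mul1(+/+) liver. Nupr1 per Ddit3 was 0.120, 0.137 and 0.172 against 0.425, 0.427 and 0.392, nearly constant within Mul1(−/−) HFD-liver. Fgf21 per Trib3 ran from 0.121 to 1.27 in Mul1(+/+) and from 0.207 to 0.917 in Mul1(−/−), and these ranges overlapped.

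The rest of the pathway was read from 11 lists of 234 genes, arranged by role, of which 54 besides the 7 were in the table. The table holds only genes that passed the authors' test. Listed genes outside it have no value here, so the shares below do not describe a whole list. Among the 54, 14 were higher and 40 (74.1%) lower in Mul1(−/−), against 43.2% lower over the table, and the median log2 difference was −1.32 against 1.12. By limma, with adjusted p under 0.01 and an absolute log2 difference above 1, 5 of the 54 (9.26%) rose, against 16.7% of the table, and 8 (14.8%) fell, against 7.43%. The 5 were Ddit4l, Psat1, Slc1a5, Fkbp11 and Casp4, and the 8 were Cbs, Slc6a9, Tars, Derl3, Nploc4, Hyou1, Klb and Ppara. Because the table was itself drawn up from a test of these libraries, its calls are not independent evidence. At an unadjusted limma p under 0.05 stood 3416 of its 3542 genes and 52 of the 54, so that mark sets none of them apart. Rescaling by the median ratio turned the counts into 2 that rose and 30 that fell. Without Mul1(−/−) replicate 2, or without any 1 of the Mul1(+/+) replicates, limma called 0 that rose and 0 or 1 that fell (9 to 12 higher and 29 to 33 lower ones at an unadjusted p under 0.05), and without Mul1(−/−) replicate 1 it called 5 and 2.

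**Figure D3:**
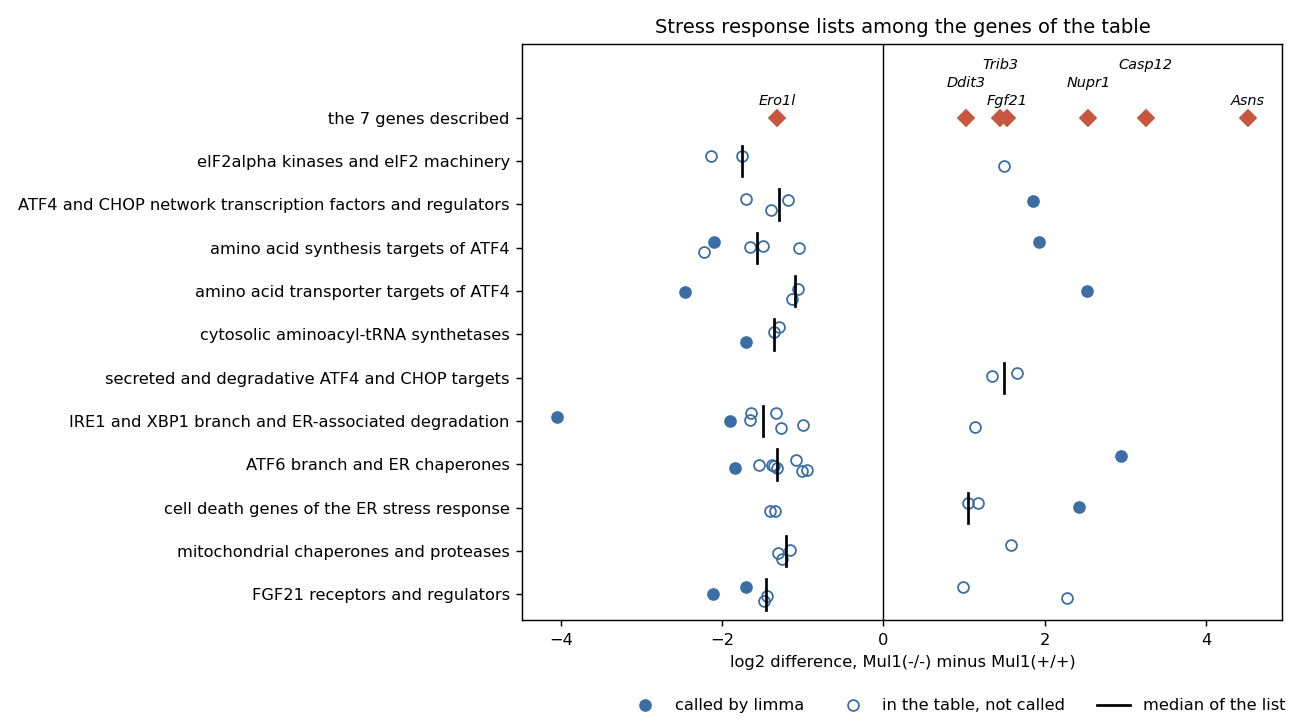
Log2 difference, Mul1(−/−) minus Mul1(+/+) (horizontal axis), of the 54 genes of 11 stress response lists that were in the table and, in the top row, of the 7 genes described (diamonds, not tested). Filled points passed limma at adjusted p under 0.01 with an absolute log2 difference above 1, open points did not, and black bars are list medians: 40 of the 54 genes lie left of 0.

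Upstream of ATF4, 3 of 21 genes for the eIF2alpha kinases and the eIF2 complex were in the table, and none was called by limma. All 3 were at an unadjusted p under 0.05, as were 3416 of the 3542 genes of the table. The haem-regulated kinase gene Eif2ak1 had the largest difference, 3200 ± 137 against 910 ± 691 normalized counts (SD, n = 3, log2 difference −2.14, limma adjusted p = 0.0116). Of 22 transcription factors and regulators of the ATF4 and CHOP network, 4 were in the table, 1 higher and 3 lower. Ddit4l, an inhibitor of mTORC1 signalling, rose from 40.9 ± 9.81 to 154 ± 52.3 (log2 difference 1.86, limma adjusted p = 0.00816).

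Genes of amino acid supply, the group to which Asns belongs, went in both directions. Of 21 amino acid synthesis targets 6 were in the table, 1 higher and 5 lower. Psat1, the aminotransferase of serine synthesis, rose from 46.1 ± 7.17 to 179 ± 36.6 (log2 difference 1.93, limma adjusted p = 0.00697), and Asns per Psat1 went from 0.431 to 0.817 in Mul1(+/+) to 2.89 to 3.97 in Mul1(−/−). Cbs, which condenses homocysteine with serine, fell from 26557 ± 9251 to 6405 ± 3118 (log2 difference −2.10, limma adjusted p = 0.00855). Of 17 amino acid transporters 4 were in the table, 1 higher and 3 lower. Slc1a5, a glutamine transporter, rose from 63.5 ± 10.3 to 419 ± 222 (log2 difference 2.52, limma adjusted p = 0.00701), and Slc6a9, a glycine transporter, fell from 1528 ± 356 to 330 ± 222 (log2 difference −2.46, limma adjusted p = 0.00854). The genes that charge transfer RNA with amino acids were lower in 3 of 3 cases in the table, out of 20 listed. Tars, for threonine, fell from 6166 ± 1067 to 1972 ± 776 (log2 difference −1.70, limma adjusted p = 0.00983). Asns, Psat1 and Slc1a5 were all rare in Mul1(+/+) HFD-liver, at mean normalized counts of 26.3, 46.1 and 63.5, whereas the means of Cbs, Slc6a9 and Tars were between 1528 and 26557. The part of expression level in these directions was not tested. Aldh1l2, of the synthesis list and named after its values were seen, had means of 30.3 ± 29.8 and 3.45 ± 0.967 (log2 difference −2.22, limma adjusted p = 0.0208, not called). It rested on 3, 2 and 4 reads in Mul1(−/−) replicates 1 to 3.

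Among genes of the ER, where ERO1 and caspase 12 reside, those in the table were mostly lower, and most listed ones were not in it. Of 30 genes of the ATF6 branch and ER chaperones 9 were in the table, and 8 of the 9 were lower (median log2 difference −1.32). Hyou1, a large ER chaperone, fell from 9456 ± 2591 to 2593 ± 398 (log2 difference −1.84, limma adjusted p = 0.00776), and Fkbp11, a prolyl isomerase of the secretory pathway, rose from 369 ± 211 to 2762 ± 1234 (log2 difference 2.95, limma adjusted p = 0.00591). Of 26 genes of the IRE1 and XBP1 branch and of ER-associated degradation 8 were in the table, 1 higher and 7 lower. Derl3, a channel component of ER-associated degradation, fell from 1712 ± 1302 to 84.8 ± 29.7 (log2 difference −4.05, limma adjusted p = 0.00428), and Nploc4, a cofactor of the extraction ATPase VCP, fell from 3799 ± 641 to 1056 ± 385 (log2 difference −1.90, limma adjusted p = 0.00797). The means of the major chaperone gene Hspa5, which encodes BiP, were 40754 ± 17276 and 20079 ± 2967 (log2 difference −0.95, limma adjusted p = 0.0495, not called).

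The ER stress element (ERSE), CCAAT and CCACG with 9 bases between them, is the letter pattern known for ATF6 and XBP1 at chaperone genes. It was in the windows of 37 of 27025 genes (0.137%) and in none of the windows of the 7 genes. Among pathway genes with a window, 5 of the 35 lower ones (14.3%) and 0 of the 11 higher ones held it. The lists include ATF6 and XBP1 genes by role, so a share above that of all genes can follow from that choice. Of all lower genes with a window, 8 of 1202 held it (0.666%), and these 8 include the same 5. Among all higher genes it was in 2 of 1286 (0.156%). The 5 matches are printed in the direction of the element, with the fixed letters in capitals, and their genes were picked for the match and not for the size of their difference.
Derl3, chr10:75893242-75893260: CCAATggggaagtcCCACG
Creld2, chr15:88819520-88819538: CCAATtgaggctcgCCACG
Ero1lb, chr13:12565682-12565700: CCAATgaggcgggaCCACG
Pdia6, chr12:17266491-17266509: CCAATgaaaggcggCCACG
Hspa5, chr2:34772025-34772043: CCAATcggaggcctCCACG
Their log2 differences were −4.05 for Derl3, −1.64 for Creld2, −1.38 for Ero1lb, −1.32 for Pdia6 and −0.95 for Hspa5, and Derl3 alone of the 5 was called. Ero1lb encodes the second ER oxidase, a paralog of Ero1l, and its means were 3695 ± 532 and 1492 ± 572 normalized counts (SD, n = 3). CARE was in 4 of the 35 lower pathway genes with a window (11.4%: Tars, Aars, Got1 and Eif2s3x) and in 0 of the 11 higher ones. In the table it was in 2.88% of 1286 higher and 3.08% of 1202 lower genes. The remaining motifs, the cAMP response element TGACGTCA and the unfolded protein response element TGACGTGG, were in 2.03% and 0.714% of all genes with a window and in 0 of the 7.

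**Figure D4:**
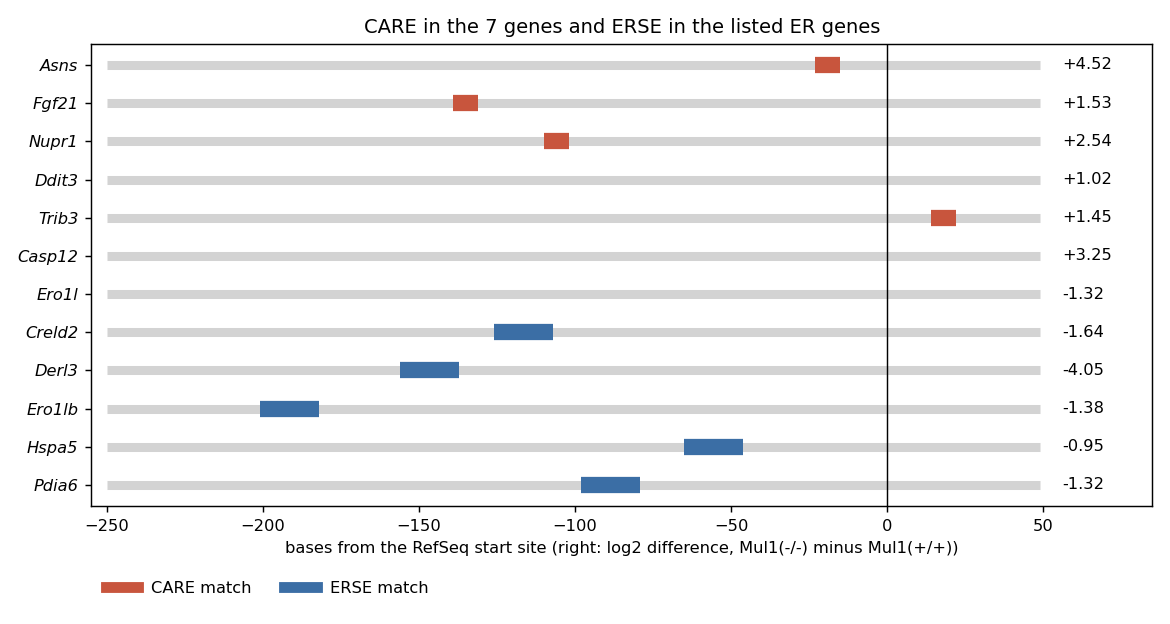
Positions of CARE matches (red) in the promoter windows of the 7 genes and of ERSE matches (blue) in the 5 listed ER genes that hold it, in bases from the RefSeq start site (horizontal axis), with each gene's log2 difference at the right. CARE stands in 4 of the 7 windows, and all 5 genes shown with ERSE were lower in Mul1(−/−).

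Among 22 genes that act in cell death under ER stress 5 were in the table, 3 higher and 2 lower. Casp4, an inflammatory caspase encoded near Casp12, rose from 49.5 ± 14.2 to 276 ± 101 (log2 difference 2.43, limma adjusted p = 0.00615). Casp12 per Casp4 was 1.13, 0.770 and 1.57 in Mul1(+/+) and 1.67, 2.67 and 1.71 in Mul1(−/−), higher in every Mul1(−/−) liver than in any Mul1(+/+) liver by a narrow margin. Casp1, Casp4 and Casp12 are also used by immune cells, and the macrophage marker Lyz2 was at 2546, 3954 and 2191 in Mul1(+/+) and 3632, 6648 and 10277 in Mul1(−/−). The part of immune cells in the Casp12 difference was not tested. Of 19 secreted and degradative targets of ATF4 and CHOP 2 were in the table, both higher, and neither was called. Both were at an unadjusted limma p under 0.05, as was most of the table. The death receptor gene Tnfrsf10b, a target of CHOP, had means of 13.7 ± 6.52 and 43.5 ± 11.2 (log2 difference 1.65, limma adjusted p = 0.0113). Of 20 chaperones and proteases of the mitochondrial stress response 4 were in the table, 1 higher and 3 lower, none of them called. All 4 were at an unadjusted limma p under 0.05, again like most of the table. The co-chaperonin gene Hspe1 had the largest difference, 8168 ± 2454 against 24310 ± 7011 (log2 difference 1.58, limma adjusted p = 0.0114).

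Downstream and upstream of FGF21, 6 of 17 genes had a value in the table, of which 2 were higher and 4 lower. Klb, the co-receptor that FGF21 needs to signal, fell from 1751 ± 596 to 447 ± 312 (log2 difference −2.12, limma adjusted p = 0.00999). Ppara, the fasting-activated receptor that drives Fgf21 in liver, fell from 7382 ± 2484 to 2178 ± 340 (log2 difference −1.71, limma adjusted p = 0.00977). These are mRNA values. For the protein, the paper's blots compared diets and showed PPARα reduced by HFD in Mul1(+/+) liver but not in Mul1(−/−) liver, so the fall in mRNA does not give the protein level. The hormone gene and its co-receptor gene thus lay on opposite sides, with the overlap between groups for Fgf21 given earlier.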

How the data were processed

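mRNA of liver from 3 Mul1(+/+) and 3 Mul1(−/−) mice on HFD was sequenced, and the authors compared the groups with DESeq2. They deposited a table of normalized counts, each count divided by one factor per library, with log2 fold changes and p-values of the authors' own test, which were not used here. Its genes had passed that test, with adjusted p up to 0.05 and the smallest absolute log2 fold change being 1.0004. The aligner, build and strand setting are not given in the sources used here. Whole reads could be recovered from the low values of each library (100% within 0.1 read).

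The values were taken as log2(normalized count + 1), without a filter, and fitted with limma 3.58.1 in R 4.3.3, with genotype as the only term and Benjamini-Hochberg adjustment over 3542 genes, after a test on simulated data. The adjustment covers only genes that had already passed a test on these libraries. Its adjusted p-values are therefore not false discovery rates over all genes measured. A fold on this scale understates the change of low genes. The threshold is that of the study. Whether libraries stand for separate litters is not stated, so p-values measure only the spread between them. Coordinates and lengths are from GENCODE M21 on GRCm38 (3531 identifiers matched), and promoter windows are from RefSeq (GRCm38.p6). Same-numbered libraries deviated with correlations of 0.02, 0.35 and 0.05, so the numbers were not taken as pairs. The 7 genes and all lists were chosen with earlier results of these data known. Named genes are the 7, Mul1, the called genes of each list or else its largest difference, and the 2 genes most alike to each of the 7. Others were named after their values were seen.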

Additional observations from a re-analysis of the deposited data

How the results depend on the processing

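Rescaling by the median ratio gave 236 higher and 1031 lower genes called over the table (591 and 263 as reported) and 2 and 30 over the pathway lists (5 and 8), moved the median of the 7 genes from 1.53 to 0.88 and put Mul1 at −2.10 (limma adjusted p = 0.00888). Equal totals gave 619 higher and 724 lower in the table and 4 and 20 in the lists, and equal totals without the mitochondrial genome 171 and 5 lower. A pseudocount of 0.5 gave 172 and 4 lower, and one of 10 gave 680 and 21 lower with Mul1 at −1.43 (limma adjusted p = 0.0082). With limma-trend 964 higher and 905 lower were called, 26 lower in the lists, with Mul1 at −1.44 (adjusted p = 0.00546). At an adjusted p under 0.05 the counts were 1877, 1503, 13 and 38, and Mul1 (−1.44) passed.

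With the replicate number as a replicate block, limma called 0 genes in either direction over table and lists (3314 and 52 at an unadjusted p under 0.05), with Mul1 at −1.44 (adjusted p = 0.0176). Not every library correlated best with its own number. Leaving out 1 library gave 9 to 1595 higher and 1 to 1078 lower over the table, 0 to 12 and 0 to 27 over the lists (38 to 51 of 54 at an unadjusted p under 0.05), −1.71 to −1.28 for Mul1, and 1.08 to 2.23 for the median of the 7. The low counts came without Mul1(−/−) replicate 2 or any Mul1(+/+) replicate, the high ones without Mul1(−/−) replicate 3, and the cause was not tested. Without Mul1(−/−) replicate 1, 2 list genes fell. Directions of the 7 genes held in every setting. The planned count tests on recovered reads were not run here, although whole reads could be recovered from the low values. How such tests would change the counts of called genes is not known. With 3 animals per group and 20 to 49 Asns reads in Mul1(+/+), sizes are imprecise.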

Other observations

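For each of the 7 genes, the genes of the table whose log2 values were most alike over the 6 libraries were noted as a description. With 6 libraries in 2 groups, chosen among 3542 genes, a high Pearson correlation r can come from a shared difference between genotypes, and the libraries share their scaling factors. Asns was most like Ggt5, a gamma-glutamyl transferase (r = 0.994), and Rps27rt (r = 0.994). Nupr1 was most like Degs2, a sphingolipid desaturase and hydroxylase (r = 0.995), and Etfbkmt (r = 0.994). Ddit3 was most like Relb, a subunit of NF-kappaB (r = 0.998), whose normalized counts were 132, 151 and 85.8 in Mul1(+/+) and 343, 200 and 251 in Mul1(−/−) replicates 1 to 3, and 1700003F12Rik (r = 0.989). Both Relb and Ddit3 were highest in Mul1(−/−) replicate 1 and lowest in Mul1(+/+) replicate 3.

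Fgf21 was most like Fabp5, a fatty acid binding protein gene (r = 0.976), at 125, 213 and 457 in Mul1(+/+) and 514, 318 and 1293 in Mul1(−/−) replicates 1 to 3, with Mul1(−/−) replicate 2 below Mul1(+/+) replicate 3 in both genes. The next was Gm32540 (r = 0.906). Trib3 was most like Gm33543 (r = 0.996), at 274, 174 and 79.2 in Mul1(+/+) and 614, 625 and 2100 in Mul1(−/−), and Itgax, an integrin of dendritic cells and macrophages (r = 0.977). Casp12 was most like Rragd, a GTPase of amino acid sensing by mTORC1 (r = 0.996), at 88.5, 102 and 135 in Mul1(+/+) and 573, 1026 and 938 in Mul1(−/−), and Pfkp, a phosphofructokinase (r = 0.994). Ero1l was most like Gtf3c4 (r = 0.999) and Slc35e1 (r = 0.998), both lower in all Mul1(−/−) livers and nearest to Mul1(+/+) in replicate 3.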
